A study of Mus musculus with 6 samples.

Results

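Wide H3K27me3 peaks that were listed in dihydrotestosterone (DHT) treated granulosa cells (GCs) and not in control GCs are described here. They were chosen by their measured values: a peak of the DHT list belonged to the set if it was over 1000 bp wide and shared not even 1 bp with any control peak. Chromosomes 1 to 19 were considered. The rule selected 278 regions out of 3787 DHT peaks on these chromosomes (7.34%) and out of 3975 DHT peaks in all. Together the 278 regions spanned 0.336 Mb, or 18.6% of the length of the DHT peaks on these chromosomes.

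H3K27me3 is trimethylation of lysine 27 on histone H3. The methyltransferase EZH2, a subunit of Polycomb repressive complex 2, places the mark, and the demethylase JMJD3 removes it. The mark is associated with silenced genes, and at developmental regulators it can extend over broad domains, whereas weak enrichment is also spread thinly over inactive chromatin. GCs surround the oocyte and make steroids in the follicle, and they express the androgen receptor that DHT activates.

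All GCs came from the ovaries of wild type C57BL/6J mice aged 8-9 weeks, and chromatin of every sample was precipitated with an antibody to H3K27me3. The control group held 3 samples without an agent, and the DHT group held 3 samples treated with 25 nM DHT for 24 h. The labels state that cells of 30 mice were pooled and plated in 6 dishes, while the methods of the study give a different number of mice. The samples are thus cultures from pooled animals and not single mice. The processed data used here were 1 peak list per group, and the spread between the 3 samples of a group cannot be seen in them. No difference between control and DHT could therefore be tested, and the depth of each sample is unknown. A control peak that fell short of the calling limit is missing from the control list, so "DHT only" describes calls in the lists and not absence of the mark. In bulk chromatin a weaker mark in all cells and the mark in fewer cells cannot be told apart. The lists hold no values for marker genes, so the GC identity of the cultures could not be checked, and no gene is assigned to any peak here. Coordinates are from mm9 and peaks have no strand.

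The DHT-only peaks over 1 kb were short and clustered near the lower limit of width. Their median width was 1173.5 bp (quartiles 1083 and 1295 bp), the narrowest was 1001 bp and the widest was 1907 bp. Of the 278 regions, 91 (32.7%) were no wider than 1100 bp, a further 67 were between 1101 and 1200 bp, and 56 were between 1201 and 1300 bp. Only 20 regions exceeded 1500 bp. Thus most of the set lay close to the limit that defined it, and its numbers fell with increasing width.

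**Figure D1:**
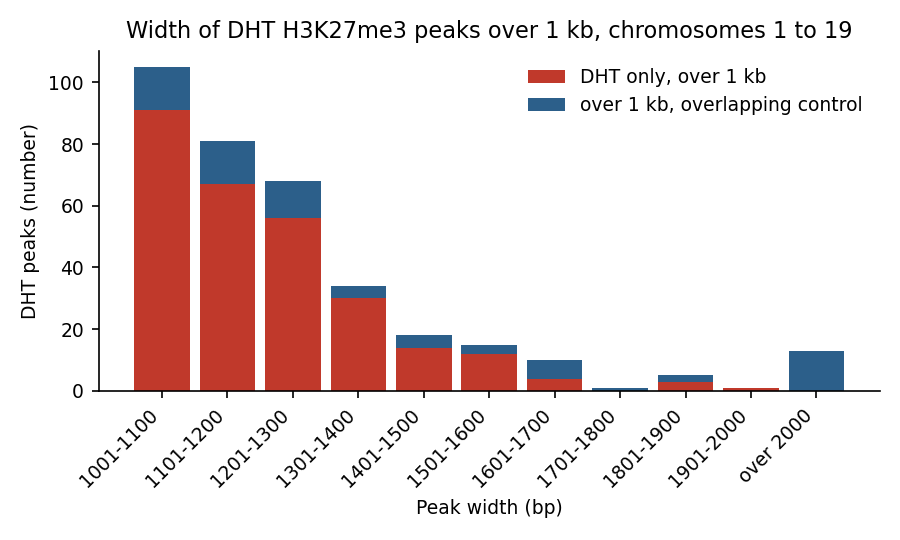
Number of DHT peaks over 1 kb on chromosomes 1 to 19 (vertical axis) by peak width in bp (horizontal axis, classes of 100 bp), stacked as DHT-only peaks (red) and peaks overlapping a control peak (blue). The DHT-only peaks fall from 91 in the first class to 1 in the last class below 2000 bp, while all 13 peaks over 2000 bp overlapped a control peak.

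The 5 widest DHT-only peaks were named by rule. The widest was chr10:111288913-111290819, with a width of 1907 bp and a fold enrichment of 3.80 over the background of the DHT pool. The next was chr14:27504300-27506197 (1898 bp), whose fold enrichment of 3.72 and −log10 q of 1.60 were below the medians of the set. On chromosome 8 there were chr8:12253281-12255150 (1870 bp, 4.43-fold) and chr8:122805869-122807678 (1810 bp, 4.36-fold). The last of the 5 was chr1:25306804-25308489 (1686 bp, 4.23-fold). The widest regions were therefore not those of highest enrichment, and none of the 5 reached a fold enrichment of 5.

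At the limit itself the peaks on either side resembled each other. The 5 narrowest regions inside it had widths of 1001 to 1007 bp and lay on chromosomes 7, 14, 6, 1 and 7. The first of them, chr7:62978346-62979346, had a fold enrichment of 3.42, and the others ranged from 3.64 to 3.79. The 5 widest peaks left out had widths of 995 to 1000 bp and fold enrichments of 3.40 to 3.81, and 0 of these 5 overlapped a control peak. The widest of them, chr2:139020476-139021475, measured exactly 1000 bp.

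Enrichment over background was low and uniform across the wide DHT-only peaks. The median fold enrichment was 3.79 (95% interval of the median 3.76 to 3.84), with quartiles of 3.68 and 4.03 and a range of 3.35 to 5.19. The median −log10 q was 1.81, with a range of 1.35 to 4.13 and a lowest value of 1.35 for any DHT peak in the list. A −log10 q under 2 was recorded for 195 of the 278 regions (70.1%), and 2 regions reached 3 or more. For DHT-only peaks up to 1 kb (n = 2869) the median fold enrichment was 4.24 and the median −log10 q was 2.34, and 731 peaks (25.5%) reached a −log10 q of 3. The median width of these narrower peaks was only 291 bp. Among all DHT peaks, with or without control overlap, those over 750 to 1000 bp had medians of 3.76-fold and 1.73. Those over 1000 to 1200 bp had 3.77-fold and 1.75. Low values were thus not particular to peaks over 1 kb. A fold enrichment of at least 4 was found in 79 wide regions (28.4%, 95% Wilson interval 23.4 to 33.99%) and in 65.3% of the narrower DHT-only peaks (63.6 to 67.04%). Because the caller averages these scores over the whole peak and width was used to choose the set, these values are a description and were not tested. All intervals cover counting error only.

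**Figure D2:**
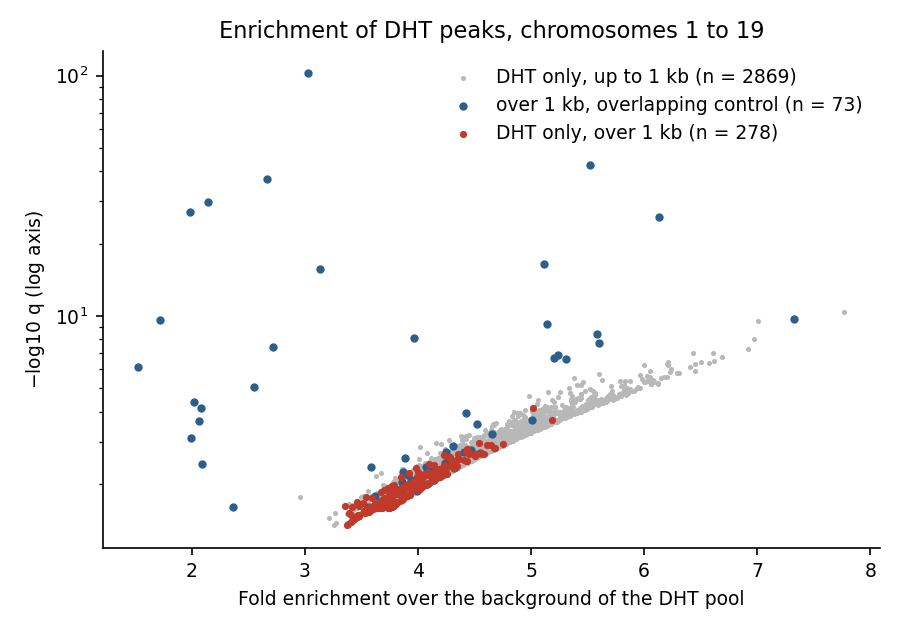
Fold enrichment over the background of the DHT pool (horizontal axis) against −log10 q (vertical axis, log scale) for single DHT peaks on chromosomes 1 to 19, shown as DHT-only peaks over 1 kb (red), DHT-only peaks up to 1 kb (grey) and peaks over 1 kb overlapping control (blue). The red points stay between 3.35- and 5.19-fold at the low end of the grey cloud, whereas several blue points stand far above it, up to a −log10 q of 102.2.

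The highest fold enrichment belonged to chr13:87410726-87411774, a region of 1049 bp with a fold enrichment of 5.19 and a −log10 q of 3.70. The highest −log10 q, 4.13, belonged to chr1:105506232-105507391, a region of 1160 bp with a fold enrichment of 5.02. These 2 regions were the only members with a fold enrichment of 5 or more and also the only ones with a −log10 q of 3 or more. They were followed in fold enrichment by chr10:67638400-67639598 (4.75), chr16:95139589-95140871 (4.68) and chr7:114806187-114807480 (4.67). By −log10 q, the third place and the last of the top 5 went to chr15:66141502-66142923 (2.96) and chr2:104713820-104714981 (2.92). These regions of highest fold enrichment or −log10 q had widths of 1049 to 1422 bp, and none of them was among the 5 widest.

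Among the members themselves, wider regions had slightly higher enrichment. The median fold enrichment was 3.76 in the 158 regions up to 1200 bp, 3.85 in the 100 regions from there to 1500 bp, and 3.93 in the 20 regions over 1500 bp. Across the 278 regions the Spearman correlation of width with fold enrichment was 0.20 and that of width with −log10 q was 0.25. The regions share the same libraries and the same caller, and the correlations are weak.

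Some regions carried exactly the same scores. A fold enrichment of 3.76, a −log10 p of 4.61 and a −log10 q of 1.60 occurred together, to all deposited decimals, in 20 of the 278 regions (7.19%) and in 86 DHT-only peaks up to 1 kb (2.998%). The caller takes fold enrichment as pileup plus 1 over background plus 1, and the p-value as a Poisson tail. With these formulas the shared scores correspond to a pileup of 7 fragments over a background of 1.13 fragments. Solved in the same way, the median pileup over the 278 regions was 7.68 fragments (quartiles 7.11 and 8.28), and 179 regions (64.4%) came out below 8 fragments. For DHT-only peaks up to 1 kb the median was 8.68 fragments and 31.1% came out below 8. A typical wide DHT-only call therefore rested on a depth of about 7 or 8 fragments along its length. These pileups are approximate where scores vary within a peak, and the 20 regions had widths of 1003 to 1295 bp.

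Next, the set was placed among all wide DHT peaks. Of 351 DHT peaks over 1 kb, 278 (79.2%, 95% interval 74.7 to 83.1%) had no control overlap, compared with 83.5% (82.2 to 84.7%) of 3436 narrower DHT peaks. Over all DHT peaks on these chromosomes 83.1% had no control overlap and 9.27% were over 1 kb. As both properties define the set, nothing is read from these shares. The share without control overlap was 84.9% for widths of 1001 to 1200 bp (158 of 186), 83.3% from 1201 to 1500 bp (100 of 120) and 62.5% from 1501 to 2000 bp (20 of 32, 95% interval 45.3 to 77.1%). Above 2000 bp it was 0 of 13. A limit of 3 counts for a count of 0 allows a share of up to 23.1%, and the upper Wilson bound is 22.8%.

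**Figure D3:**
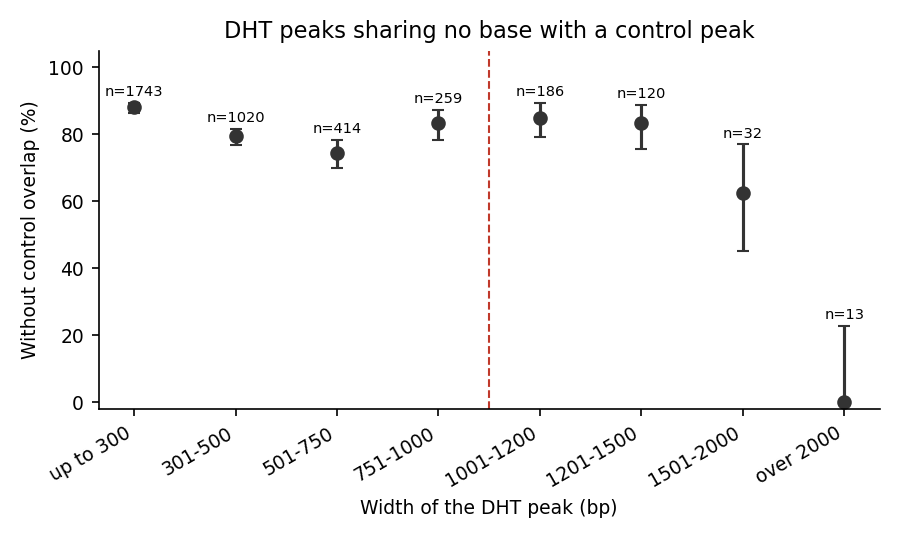
Percentage of DHT peaks that shared no base with a control peak (vertical axis) by width of the DHT peak in bp (horizontal axis). Points are percentages, bars are 95% Wilson intervals, n is the number of DHT peaks in each class, and the dashed line marks the 1000 bp limit. The share lies between 74.4% and 88.1% up to 1500 bp and is 0 for the 13 peaks over 2000 bp.

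The 73 wide DHT peaks that did overlap control differed in −log10 q from the 278 that did not, while their median fold enrichments were close. The 73 overlapping peaks had a median width of 1278 bp and a median −log10 q of 2.37. A −log10 q of 3 or more was reached by 28 of them (38.4%), against 2 of 278. Consequently, of the 30 wide DHT peaks with a −log10 q of at least 3, only 6.67% were DHT only, whereas among the 201 with a −log10 q from 1.5 to 2 the share was 89.1%. In narrower DHT peaks the corresponding shares were 77.1% and 88.2%. Position differed as well. Of the 13 peaks over 2 kb, 8 began within the first 4 Mb of chromosomes 9 and 11, and of all 73 wide overlapping peaks 17 (23.3%) began within the first 4 Mb of chromosomes 4, 9, 11, 13 or 16. In contrast, 0 of 278 DHT-only regions began within the first 4 Mb of any chromosome. The limit of 3 counts allows a share of up to 1.08%, and the upper Wilson bound is 1.36%. Shares were also low in other sets without overlap, at 0.593% for DHT-only peaks up to 1 kb and 0.877% for wide control-only peaks. The 4 Mb limit was not set in advance, and nothing particular to the wide DHT-only peaks is read from it.

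Overlap was judged by at least 1 bp, and the wide overlapping peaks included marginal cases. Control peaks covered a median of 71.3% of their length, and 11 were covered from end to end. In 28 of the 73 less than 50% of the peak was covered, and the smallest shared length was 2 bp.

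The control list held the mirror image of this set in larger numbers. There were 2280 control peaks over 1 kb without DHT overlap, 8.20 for each wide DHT-only peak. All control peaks outnumbered all DHT peaks 4.01 to 1. The 2280 were 95.4% of the wide control peaks, while 4.22% of control peaks of any width overlapped a DHT peak. Lack of DHT overlap was thus not particular to wide control peaks. Wide peaks were also a larger share of control peaks (15.7%) than of DHT peaks (9.27%). Wide control-only peaks had a median width of 1160 bp and a median fold enrichment of 3.32 over the background of their own pool. The common limit of 1000 bp holds the medians of both sets close (1173.5 and 1160 bp). Of the 2280 wide control-only peaks 42 exceeded 2000 bp and the widest was 3202 bp, while the 278 DHT-only peaks ended at 1907 bp. The sets differ in size, and all 13 DHT peaks over 2000 bp fell outside the set by overlap. No difference in the widest peaks is therefore read from these values. The fold enrichments cannot be compared directly because each is relative to its own background and calling limit. Of the wide control-only peaks 388 (17.0%) had a −log10 q of 2 or more, compared with 83 (29.9%) of the wide DHT-only peaks. The ratio of these counts was 4.67 to 1. Each −log10 q also belongs to its own list and background, so a value of 2 is not a common level across the lists. In the control list, 117 wide control-only peaks likewise shared identical scores, which correspond to a pileup of 8 fragments over a background of 1.82. The background per position was thus lower in the DHT pool, which also held fewer peaks, and its part in these counts was not tested.

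The surroundings of the wide DHT-only peaks were then examined. The gap to the nearest control peak had a median of 57048 bp, with quartiles of 21612 and 113948 bp. For DHT-only peaks up to 1 kb the median was 52502 bp, with quartiles of 20876 and 115497 bp. A control peak lay within 1 kb of 4 wide regions, within 5 kb of 15, within 10 kb of 37 and within 100 kb of 202. No control peak lay within 50 kb of 151 regions (54.3%, 95% interval 48.4 to 60.1%), compared with 51.4% (49.6 to 53.3%) of narrower DHT-only peaks. These intervals overlap, and no difference between wide and narrower DHT-only peaks was detectable beyond counting error.

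**Figure D4:**
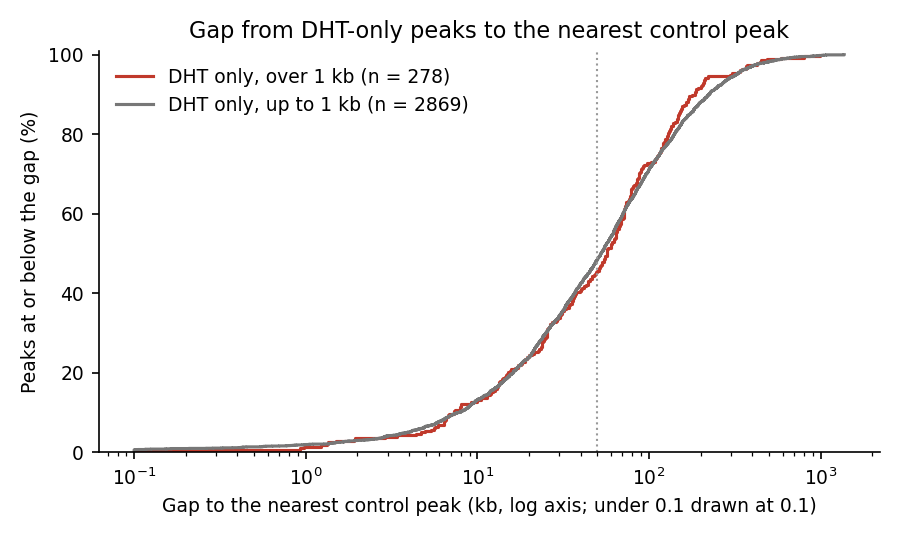
Cumulative percentage of DHT-only peaks (vertical axis) by gap to the nearest control peak in kb (horizontal axis, log scale) for peaks over 1 kb (red) and up to 1 kb (grey), with a dotted line at 50 kb. The curves run close together, with 45.7% of the wide and 48.6% of the narrower peaks at or below 50 kb.

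The 5 regions nearest to a control peak began with a region of 1020 bp on chromosome 18 that touched a control peak without sharing a base. It was followed by chr14:58968971-58970032 with a gap of 259 bp, chr14:21310845-21311955 with 928 bp, chr9:16280795-16282089 with 974 bp and chr3:20482071-20483097 with 1234 bp. The control peak beside the first region was 274 bp wide with a fold enrichment of 5.30 in its own list, and the other 4 neighbours had fold enrichments of 2.99 to 4.06. At the other end, chr8:122805869-122807678, the fourth widest region, was 990635 bp from any control peak. Next came chr7:38643136-38644468 at 803072 bp, chr1:122623722-122624783 at 589322 bp and chr2:153312267-153313572 at 488355 bp. The last, of 1266 bp on chromosome 18, was 450255 bp away. Fold enrichments of these 5 remote regions, from 3.78 to 4.36, lay within the range of the set.

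Where a control peak was near, it was an ordinary one. In the 127 regions with a control peak within 50 kb, the nearest had a median width of 469 bp and a median fold enrichment of 3.55, while all control peaks had medians of 428 bp and 3.46. Of these nearest control peaks 19 (14.96%, 95% interval 9.79 to 22.2%) were over 1 kb, compared with 15.7% of all control peaks. Counted separately over the same 127 regions, the nearest control peak overlapped some other DHT peak in 6 (4.72%), compared with 4.22% of all control peaks. Control peaks were present on both sides within 50 kb in 25 regions (8.99%). Only 26 regions (9.35%) had a wide control-only peak within 50 kb, and the share for narrower DHT-only peaks was 9.93%.

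Neighbouring DHT peaks were counted in the same way. Another DHT peak was found within 50 kb of 52 regions (18.7%, 95% interval 14.6 to 23.7%). The share was 16.7% (15.6 to 17.9%) over all DHT peaks on these chromosomes, 15.2% (13.96 to 16.6%) for narrower DHT-only peaks and 28.8% (19.7 to 40.01%) for wide peaks overlapping control. Within 5 kb another DHT peak lay beside 5 of 278 wide DHT-only regions (1.80%, 0.771 to 4.14%), 17 of 2869 narrower DHT-only peaks (0.593%, 0.37 to 0.947%) and 13 of 73 wide overlapping peaks (17.8%, 10.7 to 28.1%). Over all DHT peaks this share was 1.29%. Within 10 kb the shares were 4.68% (2.75 to 7.84%) for the wide and 2.51% (1.998 to 3.15%) for the narrower DHT-only peaks. Close DHT neighbours were thus more frequent beside the wide than beside the narrower DHT-only peaks in these counts, with intervals that overlap and no test. The median gap to the next DHT peak was 198261 bp. Of the 52 nearest DHT peaks, 6 (11.5%) overlapped a control peak, whereas 16.9% of all DHT peaks did, and 2 were themselves members of the set. Neither a control peak nor another DHT peak lay within 50 kb of 131 regions (47.1%), against 44.6% of narrower DHT-only peaks.

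The regions did not form groups. When members less than 100 kb apart were joined, 276 stood alone and 1 pair remained, with 0 groups of 3 or more. The pair was chr12:83634689-83636026 and chr12:83660128-83661153, separated by 24101 bp, with fold enrichments of 3.79 and 3.76. At 200 kb there were 6 pairs. With 1.16 regions per 10 Mb, groups of 3 at this spacing would be rare in any case. Narrower and overlapping DHT peaks were not joined, so no conclusion on larger domains is drawn.

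Finally, the regions were counted by chromosome. They occurred on all 19 chromosomes, from 7 on chromosome 19 to 24 on chromosome 2. As a share of the DHT peaks of a chromosome they ranged from 4.62% on chromosome 11 (9 of 195, 95% interval 2.45 to 8.54%) and 5.10% on chromosome 6 (10 of 196) to 9.71% on chromosome 16 (17 of 175) and 10.97% on chromosome 7 (17 of 155, 95% interval 6.96 to 16.9%). The interval of every chromosome held the overall share of 7.34%. A difference between chromosomes was thus not detectable at this number of peaks. Per 10 Mb of the span covered by peaks there were 1.16 regions over all 19 chromosomes, with 0.684 on chromosome 6 and 1.79 on chromosome 16 at the extremes. Median widths per chromosome ranged from 1085.5 to 1264 bp and median fold enrichments from 3.73 to 3.94.

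**Figure D5:**
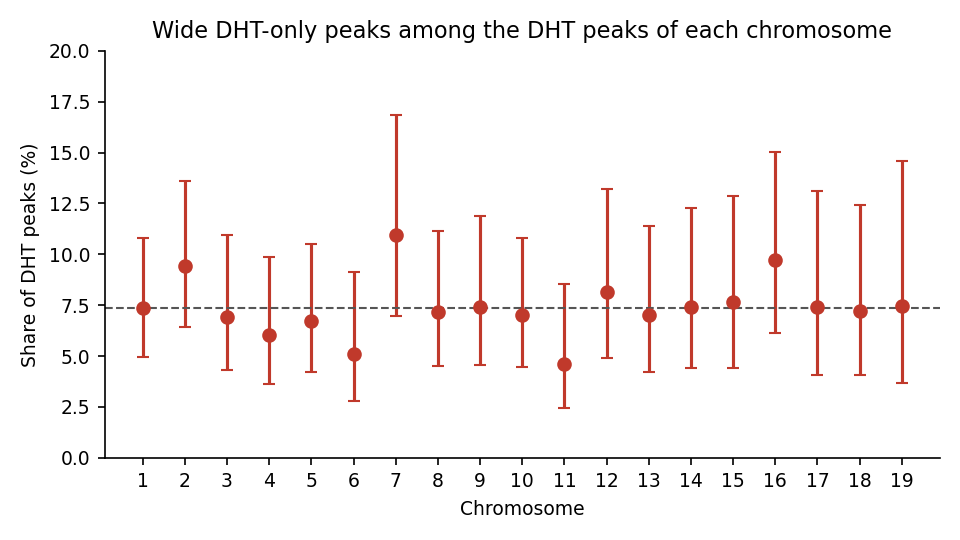
Wide DHT-only peaks as a percentage of the DHT peaks of each chromosome (vertical axis) for chromosomes 1 to 19 (horizontal axis). Points are percentages, bars are 95% Wilson intervals and the dashed line is the overall share of 7.34%, which lies inside every bar.

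Along the chromosomes, the span of peaks was divided into 5 equal parts, counted from the end where coordinates begin. The parts held 46, 54, 47, 65 and 66 of the 278 regions. The last part thus held 23.7% of the wide DHT-only peaks (95% interval 19.1 to 29.1%) and 23.4% of the narrower DHT-only peaks (21.8 to 24.9%). For wide control-only peaks it held 16.1% (14.6 to 17.7%). The interval of the wide control-only peaks did not meet those of the DHT-only sets, but no test was possible on pooled lists, and this division was chosen after the data had been seen.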

How the data were processed

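ChIP-seq reads of 6 samples (3 control, 3 DHT) had been mapped to mm9 with Bowtie2 2.3.4, and broad peaks had been called with MACS2 2.1.1 (versions per the submitters' processing notes) from uniquely mapped reads at a q-value of 0.05 or less. How the samples of a group were pooled and whether an input library was used are not given in the sources used here. Duplicate reads were dropped according to the methods, yet the names of the peaks record an automatic duplicate setting of MACS2.

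For each peak, the authors deposited a position in bp, a score (10 times −log10 q), a fold enrichment (a ratio to local background), −log10 p and −log10 q. The score was not used further. Deposited gene lists carry no positions and were not used here. Groups followed the labelled agent. There were 0 unused columns of per-sample values.

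Members were wider than 1000 bp and shared under 1 bp with control peaks. Members and lists were chosen with earlier results of these data known. Regions named were the 5 widest, the 5 highest in fold enrichment and in −log10 q, the 5 on either side of the width limit, the 5 nearest to and farthest from a control peak, and groups of 3 or more members within 100 kb, the single pair being named after its values were seen. Gaps were counted between peak edges. Intervals were 95% Wilson intervals, or binomial rank intervals for medians, and a count of 0 was also given the limit that 3 counts would set. No test between groups was run, as each group is 1 list. Python 3.11.15, pandas 2.3.3, numpy 2.4.6, scipy 1.17.1 and matplotlib 3.10.9 were used, and the interval code was tested on simulated peaks. The reference at hand was GRCm38, in which 8 chromosomes end before the last peak, so genes, base composition and sequences of the regions were not analysed here. Alternatives changed the width limit, overlap rule, q-value, list size, window and chain length.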

Additional observations from a re-analysis of the deposited data

How the results depend on the processing

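No paired analysis was possible because each group is 1 pooled list, and for the same reason fits without each replicate were not run. Of 55 alternatives, 31 stayed within 1.5 times the count or within the interval of the value. The number of regions (278) was 441 over 800 bp, 20 over 1500 bp and 0 over 2000 bp, where no median exists. It was 83 with a q-value of 0.01 or less in the DHT list and 92 in both lists. Other settings gave 258 to 311, including the removal of members with the commonest scores, which was chosen after the data had been seen. In the order over 800 bp, over 1500 bp, q of 0.01 in the DHT list and in both lists, the median width was 1062, 1564, 1218 and 1201.5 bp. In the last 3 of these settings the median fold enrichment was 3.93, 4.18 and 4.18, and the median −log10 q 1.98, 2.244 and 2.244.

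The share without a control peak in the window (54.3% at 50 kb) was 86.7% at 10 kb, 27.3% at 100 kb, 65.0% over 1500 bp, 82.6% at a q-value of 0.01 in both lists and 86.2% with the control list cut to the 3787 peaks of lowest q. The latter settings remove control peaks by construction. The share with another DHT peak (18.7%) was 4.68% at 10 kb, 29.5% at 100 kb and 30.0% over 1500 bp. On chromosome 7 the share of members fell from 10.97% to 4.30% at a q-value of 0.01 in the DHT list. The whole set shrank at this setting too, to 83 regions or 29.9% of its main count. On chromosome 11 the share fell from 4.62% to 3.68%. The fall is therefore not read as particular to chromosome 7, and its cause was not tested. Genes and base composition were not run for want of an mm9 reference used here. Unknown depth limits every count.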

Other observations

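Chromosomes X and Y were outside the set. On X, 18 of 25 DHT peaks over 1 kb had no control overlap, with a median width of 1164.5 bp (1032 to 1745 bp) and a median fold enrichment of 3.82, while 0 of 2 DHT peaks on Y were over 1 kb. When autosomal regions up to 1 Mb apart were joined, a spacing chosen after the data had been seen, 6 runs of 3 appeared and 212 regions still stood alone. The tightest run spanned 644204 bp on chromosome 10 and held the widest region of all, chr10:111288913-111290819, with chr10:111816694-111817780 and chr10:111932033-111933116. Their fold enrichments were 3.80, 3.76 and 3.48. Across the 19 chromosomes the Spearman correlation of regions per 10 Mb with DHT peaks per 10 Mb was 0.58, where the regions are part of the DHT peaks, and with wide control-only peaks per 10 Mb it was −0.05.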
